A study of Mus musculus with 2 samples.

Results

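The constitutive proteasome subunits were taken as the genes whose symbol is Psma, Psmb, Psmc or Psmd followed by a number, leaving out the inducible subunits Psmb8, Psmb9 and Psmb10. They comprised 36 of the 33696 genes in the matrices. By role these were 8 subunits of the alpha ring (Psma), 8 of the beta ring (Psmb), 6 of the ATPase ring (Psmc), 11 further subunits of the regulatory particle (Psmd), and the chaperones Psmd5, Psmd9 and Psmd10, which help to assemble the base of the regulatory particle. The members were chosen by symbol, not by a measured value.

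The proteasome degrades proteins that carry ubiquitin. Its core particle, the 20S, is a barrel in which alpha rings gate the entrance and beta rings hold the proteolytic sites of Psmb5 (chymotrypsin-like), Psmb6 (caspase-like) and Psmb7 (trypsin-like). The regulatory particle, the 19S, recognises ubiquitin, removes it and threads the protein into the core with its ATPases. In immune cells and under interferon, Psmb8, Psmb9 and Psmb10 replace Psmb5, Psmb6 and Psmb7 in newly made cores, which gives the immunoproteasome, known for making peptides for presentation on MHC class I.

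Levels were compared between mouse immune cells of 2 groups, each measured in 1 droplet-based 3′ single-cell RNA library. Both groups carried floxed alleles of Bicd2, which encodes an adaptor of the dynein motor. The first group had no Cre (Alb-WT Bicd2fl/fl, here WT), and the second had Cre under the albumin promoter, which acts in hepatocytes (Alb-Cre Bicd2fl/fl, here KO). Both were immunised with 2.5 mg of S-100, a supernatant of homogenised mouse liver in complete Freund's adjuvant, given into the peritoneum weekly for 3 weeks, a model of autoimmune hepatitis. According to the series text, immune cells were isolated from liver on a Percoll gradient, red cells were lysed, and live cells were sorted and pooled. The labels of both samples instead name peritoneal immune cells and a treatment written HFD, and the labels do not settle this conflict. The age and number of the mice were not given in the sources used here.

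With 1 library per group there was no replicate check, and no difference below has a test. Each interval is at the 95% level and covers counting error alone. After filtering, 17080 WT cells with a median of 2793 UMIs (unique molecular identifiers, 1 per captured transcript) and 15619 KO cells with a median of 2003 UMIs were kept, and 70 of the kept barcodes occurred in both libraries. They held 204628 WT and 87521 KO UMIs of the members. Haemoglobin made up 11.1% of the kept UMIs in WT and 22.9% in KO. Because each class is scaled to counts per 1000000 UMIs (CPM) of its own total, values with haemoglobin left out of the total are given beside the first results. Bicd2 itself stood at 19.8 CPM in WT and 13.3 CPM in KO over all kept cells. These are largely not hepatocytes, so this level does not measure the deletion.

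The cells fell into 8 marker-named classes that had 100 or more cells in both libraries: T-like, NK-ILC1-like, B-like, neutrophil-like, monocyte-macrophage-like, dendritic-cell-like (DC-like), plasmacytoid-DC-like (pDC-like) and erythroid-like. In both libraries the summed markers of each class were highest in that class, and every marker found in the matrices was detected in its class. These names were derived anew and may differ from the study's own. Cells left unnamed made up 6.25% of the WT and 22.5% of the KO cells. Some of their clusters met the markers of a type but were left unnamed for their haemoglobin share, among them cluster 10 with 53 WT and 1127 KO cells.

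The summed level of the 36 members was lower in KO in all 8 classes, except that the ratio in erythroid-like cells was 1.00 when each cell was thinned to 1000 UMIs. It was highest in monocyte-macrophage-like cells and lowest in erythroid-like cells in both libraries, while with haemoglobin left out of the total neutrophil-like cells were lowest (1597 CPM in WT and 1109 CPM in KO). T-like cells held 3839.6 CPM in WT and 2463 CPM in KO, which was 1.56-fold lower (interval 1.54 to 1.58). NK-ILC1-like cells held 3416 CPM in WT and 2266 CPM in KO, 1.51-fold lower (1.46 to 1.55). Neutrophil-like cells held 1553 CPM and 1039 CPM, a KO over WT ratio of 0.669 (0.638 to 0.701). These were the classes with the largest folds. In the myeloid antigen-presenting classes the fold was smaller, at 1.38 in monocyte-macrophage-like cells (4279 CPM in WT and 3105 CPM in KO) and 1.33 in DC-like cells (4071 and 3071 CPM). It was 1.37 in pDC-like cells (3332 and 2424 CPM). B-like cells, at 2313 CPM in WT and 1949 CPM in KO, and erythroid-like cells, at 216 and 190.3 CPM, had the smallest folds, 1.19 (1.14 to 1.24) and 1.14 (1.03 to 1.25). In WT the intervals of neighbouring classes overlapped only for NK-ILC1-like and pDC-like cells. In KO they overlapped for monocyte-macrophage-like and DC-like cells and for T-like and pDC-like cells.

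The haemoglobin share of the same classes moved with the library, from 2.97% in WT to 4.71% in KO in T-like cells, from 4.21% to 18.4% in NK-ILC1-like cells and from 4.13% to 15.1% in monocyte-macrophage-like cells. With haemoglobin left out of the total, the KO over WT ratio of the summed level was lowest in T-like cells (0.653) and neutrophil-like cells (0.694) and 0.736 in erythroid-like cells. NK-ILC1-like cells had a ratio of 0.779, DC-like cells of 0.810, monocyte-macrophage-like cells of 0.820, pDC-like cells of 0.829 and B-like cells of 0.871. The members were therefore below WT on either total in all 8 classes, by less in NK-ILC1-like, monocyte-macrophage-like, DC-like and pDC-like cells once haemoglobin was left out.

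**Figure D1:**
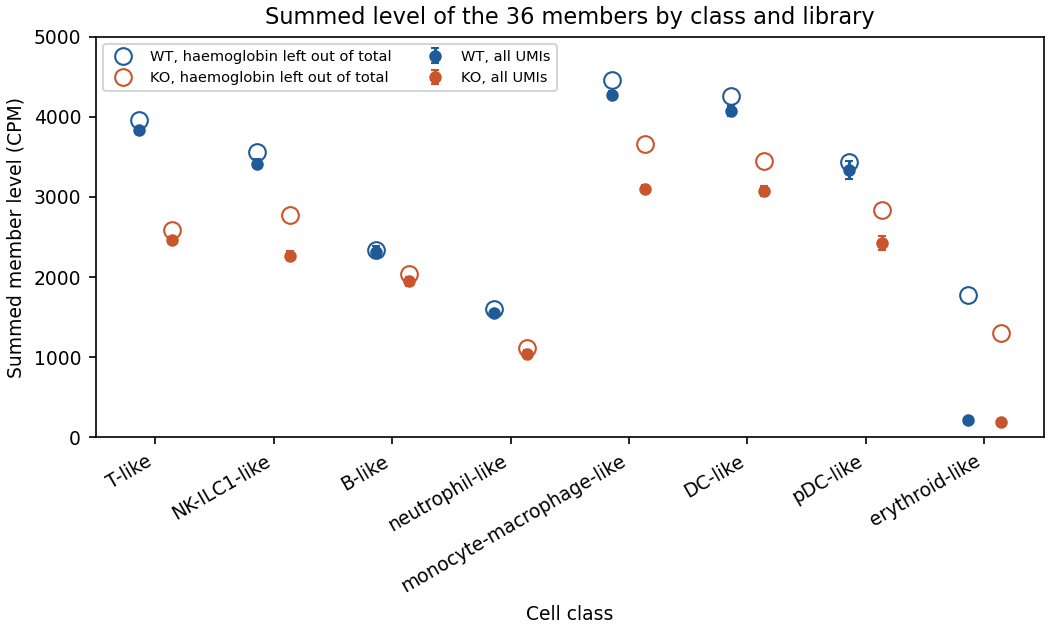
Summed level of the 36 members (CPM, vertical axis) in each cell class (horizontal axis) for the WT and KO libraries. Filled points use all UMIs of the class as the total, with exact Poisson intervals, and open points leave haemoglobin out of the total. KO points lie below WT points in every class on both totals.

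The classes were filled by different clusters in the libraries. Cluster 2, led by Cd4 and Slamf1, held 3262 of the 5543 WT T-like cells, and cluster 0, led by Il4 and Zbtb16, held 3196 of the 4235 KO T-like cells. Among monocyte-macrophage-like cells, cluster 9 was the largest in WT (827 cells), and clusters 11 (724 cells) and 7 (719 cells) in KO. Within cluster 2 WT cells held 3434 CPM and KO cells 2919 CPM of the members, 1.18-fold lower, and within cluster 0 the levels were 2791 and 2342 CPM, 1.19-fold lower. With the T-like clusters weighted equally, the ratio was 0.758, against 0.641 for the class as a whole. In neutrophil-like cells it was 0.871, against 0.669 for the whole class, with cluster 15 at 1320 CPM in WT and 1292 CPM in KO. Part of the class difference in T-like and neutrophil-like cells thus went with which clusters filled the class. Of the 24 clusters with at least 50 cells in each library, 23 had a lower summed level in KO, 21 of them with an interval that left out equality, and 4 were past 1.5-fold.

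Dividing cells held more of the members. Cluster 14, the dividing T-like cells, stood at 5238 CPM in WT and 3633 CPM in KO, against 3305 and 2347 CPM in the other T-like cells. Cluster 12, the dividing neutrophil-like cells, stood at 2134 CPM in WT and 1694 CPM in KO, against 1165 and 943 CPM in the others. The dividing clusters held 755 of the T-like cells in WT and 163 in KO, and 904 of the neutrophil-like cells in WT and 69 in KO. With the dividing clusters left out, the KO over WT ratio was 0.710 in T-like and 0.809 in neutrophil-like cells.

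Within the list, the 20S core subunits differed more between the libraries than the 19S subunits. The 16 core members made up 62.5% of all member UMIs in WT T-like cells (interval 62.2 to 62.9%) and 54.4% in KO T-like cells (53.7 to 55.0%). The share was 62.9% in WT and 53.7% in KO in NK-ILC1-like cells and 62.7% and 52.5% in neutrophil-like cells. It was lower in KO in the other classes too, with 69.2% in WT and 64.7% in KO in monocyte-macrophage-like cells, 67.5% and 62.6% in DC-like cells, and 64.1% and 58.0% in pDC-like cells. B-like cells had the smallest gap, with 56.1% and 52.3%, and erythroid-like cells the largest, with 46.0% and 29.0%. The intervals of WT and KO did not overlap in any of the 8 classes. The share is a ratio within the same cells, so it depends neither on the total nor on haemoglobin.

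The same held inside clusters. The core share was lower in KO in 24 of the 24 clusters with 50 or more cells from both libraries, and the intervals did not overlap in 20 of them. In cluster 0 it was 59.8% in WT and 53.5% in KO, and in cluster 9, the C1q-positive monocyte-macrophage-like cells, 68.7% and 61.8%. The clusters with overlapping intervals were cluster 2 of the T-like cells (62.5% and 60.4%) and the progenitor-like cluster 18 (66.5% and 64.5%), which had 83 and 52 KO cells, and the unnamed clusters 10 and 20.

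**Figure D2:**
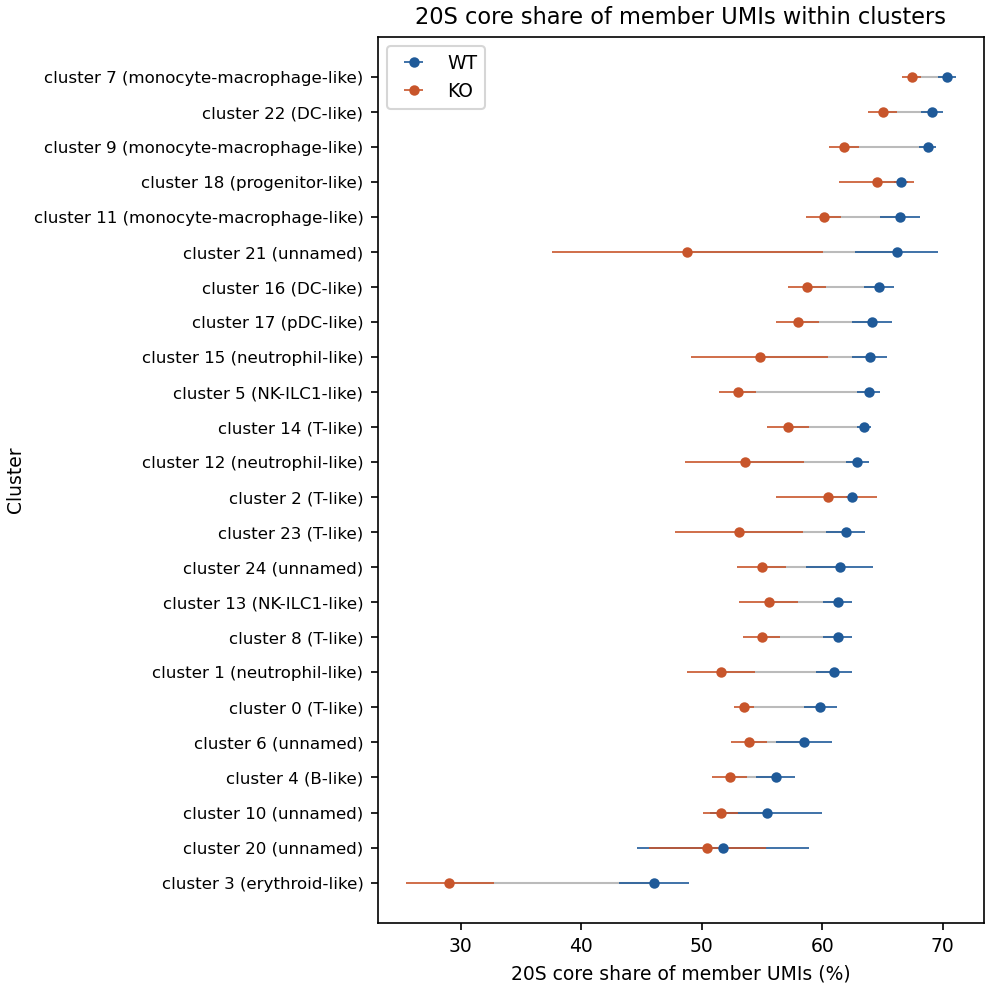
Share of the 20S core subunits among all member UMIs (%, horizontal axis) in each cluster with at least 50 cells in both libraries (vertical axis), in WT and KO, with exact Clopper-Pearson intervals. All 24 KO points lie to the left of their WT points.

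By ring, the summed alpha subunits of T-like cells stood at 1175 CPM in WT and 608 CPM in KO, 1.93-fold lower, and the beta subunits at 1226 and 731 CPM, 1.68-fold lower. The ATPase ring was 1.29-fold lower and the other 19S subunits 1.28-fold lower in the same cells. NK-ILC1-like cells gave 1.81-fold for the alpha ring, 1.73-fold for the beta ring, 1.16-fold for the ATPase ring and 1.24-fold for the other 19S subunits. In pDC-like cells the alpha ring was 1.52-fold and the beta ring 1.53-fold lower, while the interval of the ATPase ratio (0.812 to 1.14) included equality. Erythroid-like cells differed: the 19S subunits outside the ATPase ring were higher in KO, at 87.9 CPM in WT and 116 CPM in KO. The ratio was 1.32 (1.15 to 1.51), while the alpha ring was 1.93-fold and the beta ring 1.67-fold lower. The ATPase ring of these cells was lower in KO, at 23.3 and 14.1 CPM, a ratio of 0.607 (0.422 to 0.859). The gap in core share thus went with lower core levels and, on this total, a higher sum of the 19S subunits outside the ATPase ring. Of that sum, Psmd4 alone held 46.0 CPM in WT and 70.2 CPM in KO. With haemoglobin left out of the total, the median log2 ratio of the 14 measured 19S members was −0.47, 10 were below 0 and 0 were higher past 1.5-fold.

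Single members were counted as lower when past 1.5-fold on the log2 scale of CPM plus 1, among members with at least 20 UMIs over both libraries in the class. In T-like cells 17 of 34 measured members were lower, where 17% of all 13384 genes tested were. The counts were 14 of 34 in NK-ILC1-like cells (20.1% of all genes), 16 of 34 in neutrophil-like cells (24.3%) and 12 of 29 in erythroid-like cells (18.9%). In monocyte-macrophage-like cells 9 of 35 members were lower (12.3% of all genes), in DC-like cells 9 of 35 (9.77%) and in pDC-like cells 8 of 34 (17.8%). B-like cells, with 2 of 34 against 9.36%, were not above the background. With doublets kept and the cells clustered again, 9 members were lower in B-like cells and the ratio of their summed level was 0.755. The B-like class then also held a cluster led by Iglc1 and Igkc, and the share of all genes under that setting is not given here. With the dividing clusters left out the counts fell to 9 of 34 in T-like and 7 of 34 in neutrophil-like cells, where 14.9% of all genes were lower in each. The erythroid-like count rests on members with few UMIs: it was 1 with cells thinned to 1000 UMIs, 0 with a pseudocount of 10 and 1 with a minimum of 100 UMIs. With TMM scaling, which sets the total by the bulk of the genes, the counts were 17 of 34 in T-like cells (16.6% of all genes), 6 of 34 in NK-ILC1-like cells (14.5%), 17 of 34 in neutrophil-like cells (25.5%) and 12 of 29 in erythroid-like cells (19.6%). They were 6 of 35 in monocyte-macrophage-like cells (10.2%), 6 of 35 in DC-like cells (7.49%), 3 of 34 in pDC-like cells (10.5%) and 1 of 34 in B-like cells (8.54%). On that scaling the shares in NK-ILC1-like, pDC-like and B-like cells were near or below their background. A looser count took members whose interval lay below equality. It was 32 of 34 in T-like cells (32.2% of all genes), 25 of 34 in NK-ILC1-like cells (28.3%), 26 of 35 in monocyte-macrophage-like cells (28.2%), 18 of 35 in DC-like cells (20.6%) and 11 of 34 in B-like cells (12.7%). In the classes with few member UMIs it was 16 of 34 in neutrophil-like (19.5%), 12 of 34 in pDC-like (18.3%) and 7 of 29 in erythroid-like cells (13.3%). Past 1.5-fold in the other direction were Psmd13 in neutrophil-like cells, where 19.9% of all genes were higher, and Psmd4 in erythroid-like cells, where 18% were. No member was higher past 1.5-fold in T-like (10.8% of all genes), NK-ILC1-like (6.34%), B-like (6.01%), monocyte-macrophage-like (6.5%), DC-like (6.18%) or pDC-like cells (5.75%). These upward counts depended on the total. With TMM scaling, and with haemoglobin left out of the total, 4 pairs of a member and a class were higher past the fold. They were Psmd13 in neutrophil-like, Psmd5 in B-like, Psma8 in DC-like and Psmc1 in pDC-like cells, and Psmd4 in erythroid-like cells was no longer past it. The shares of all genes higher on those totals are not given here.

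The median member log2 ratio, KO over WT, was −0.60 in T-like cells, where the median of all genes tested was −0.02. It was −0.51 in NK-ILC1-like cells (all genes −0.16), −0.55 in neutrophil-like cells (−0.02), −0.39 in monocyte-macrophage-like cells (−0.07), −0.33 in DC-like cells (−0.09), −0.38 in pDC-like cells (−0.17), −0.21 in B-like cells (−0.04) and −0.55 in erythroid-like cells (0.02), the last −0.12 with a minimum of 100 UMIs. Split by particle, 63 of the 114 measured pairs of a core member and a class (55.3%) were lower past 1.5-fold. For 19S members it was 18 of the 133 pairs (13.5%). Of all genes tested, 9.36% to 24.3% were lower past this fold per class, so the 19S share lay within the background. With TMM scaling it was 51 core pairs (44.7%) and 13 19S pairs (9.77%), against 7.49% to 25.5% of all genes per class.

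**Figure D3:**
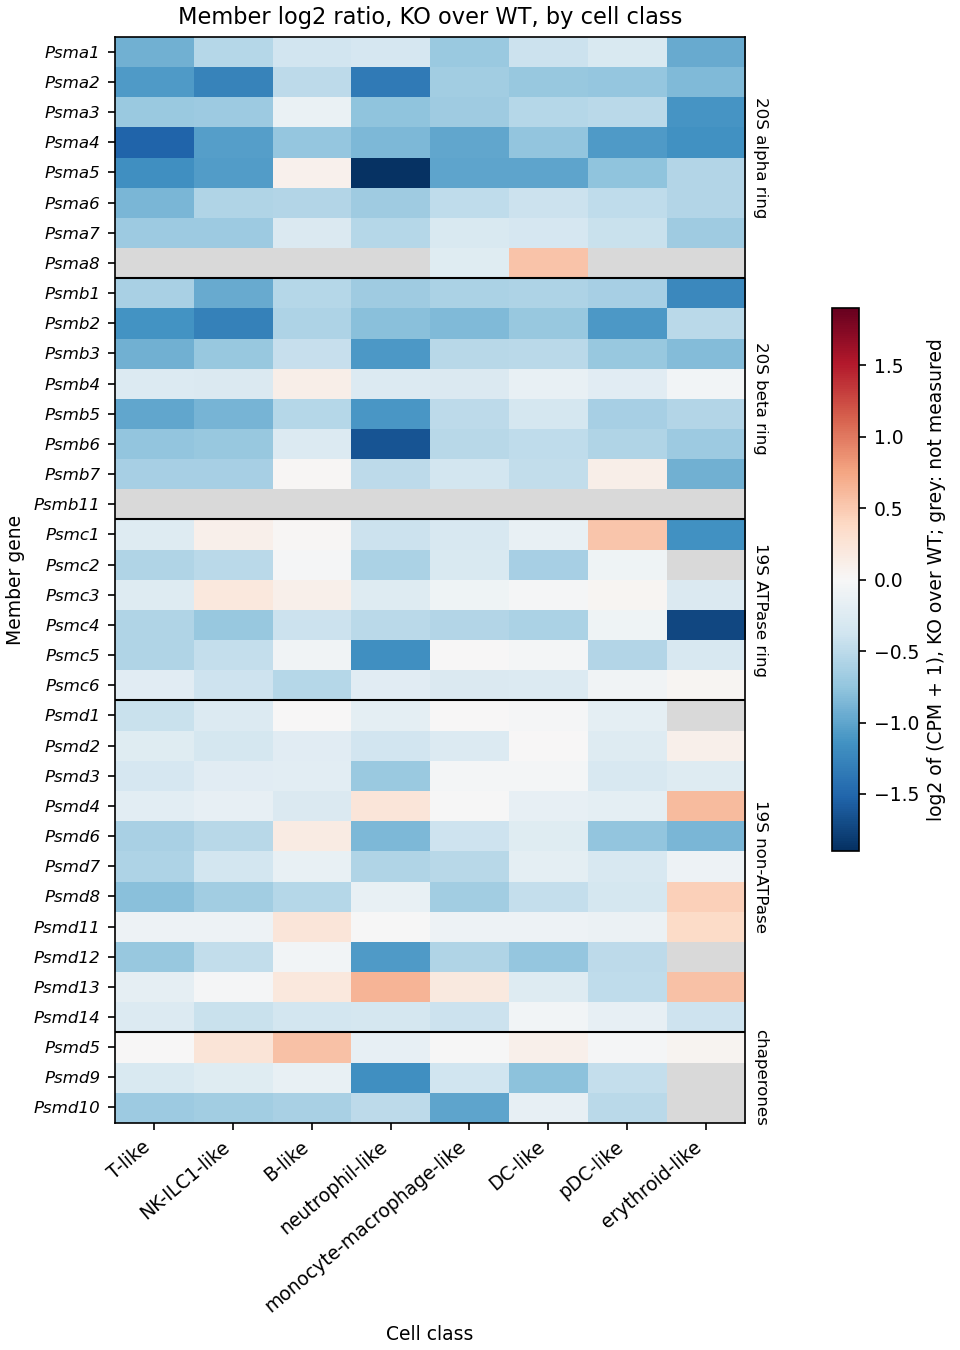
Log2 ratio of CPM plus 1, KO over WT (colour), for each of the 36 members (vertical axis, by role) in each cell class (horizontal axis). Grey cells are members with under 20 UMIs over both libraries, and the alpha and beta rings are bluer, that is lower in KO, than the 19S rows below them.

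Of the 29 members measured in all 8 classes, 10 were lower past 1.5-fold in at least 4 classes, where 9.83% of the 4059 genes measured in all 8 classes were. In at least 7 classes it was 3 members, Psma2, Psma4 and Psmb1, where 2.12% of all genes were, and in all 8 classes 1 member, Psma4, where 0.912% were. With TMM scaling it was 6 members in at least 4 classes, where 7.79% of all genes were, and Psma4 alone in at least 7 (1.6%) and in all 8 (0.764%).

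Psma4, an alpha ring subunit, had the lowest ratio of all members in T-like cells, where it stood at 158 CPM in WT and 54.3 CPM in KO (2.92-fold lower, log2 −1.53). It was 119 and 56.8 CPM in NK-ILC1-like cells, 66.8 and 39.6 CPM in B-like cells, 30.7 and 16.5 CPM in neutrophil-like cells, 211 and 106 CPM in monocyte-macrophage-like cells, 230 and 136 CPM in DC-like cells, and 148 and 69.8 CPM in pDC-like cells. In erythroid-like cells it rested on 18 WT and 3 KO UMIs, a ratio of 0.283 (interval 0.0534 to 0.970). KO was below WT in every class, with intervals of the ratio that left out equality in each. With TMM scaling it also stayed past 1.5-fold in 8 of 8 classes. Across clusters it was lower in 22 of 22 where it was measured and past 1.5-fold in 17.

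Psma2, the alpha subunit next to it in the count, was past 1.5-fold lower in 7 of 8 classes and 19 of 24 clusters. T-like cells had 256 CPM in WT and 122 CPM in KO, NK-ILC1-like cells 236 and 97.5 CPM, and neutrophil-like cells 124 and 48.4 CPM (2.56-fold lower). B-like cells, at 122 and 85.6 CPM, were the class that stayed within 1.5-fold. With TMM scaling 5 of 8 classes were past the fold.

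Psma5 showed the widest range among the classes. In neutrophil-like cells it stood at 28.1 CPM in WT and 6.91 CPM in KO, 4.07-fold lower (interval 2.35 to 7.72). In T-like, NK-ILC1-like, monocyte-macrophage-like and DC-like cells it was 2.27, 2.10, 2.02 and 2.02-fold lower. In B-like cells the levels were 48.1 and 50.7 CPM, with a ratio of 1.05 (0.785 to 1.42).

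Psma1, Psma3, Psma6 and Psma7 were lower in each of the 8 classes. Psma3 was past 1.5-fold in 5 classes, Psma1 and Psma7 in 3 and Psma6 in 2. Psma7 was the most abundant member in monocyte-macrophage-like cells, at 518 CPM in WT and 426 CPM in KO. Psma8, the testis counterpart of Psma7, had 56 UMIs in all kept WT cells and 35 in KO cells, and its levels of 3.73 and 5.87 CPM in DC-like cells rest on few counts.

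In the beta ring, Psmb1 was past 1.5-fold lower in 7 of 8 classes, with 243 and 157 CPM in T-like cells, 254 and 131 CPM in NK-ILC1-like cells and 167 and 115 CPM in B-like cells, the last within the fold. With TMM scaling 4 classes were past it. Psmb2, past it in 6 classes on either scaling, had the lowest ratio in NK-ILC1-like cells (181 and 74.0 CPM, log2 −1.28) and in pDC-like cells (194 and 90.9 CPM, log2 −1.08). Both are structural beta subunits without a proteolytic site. Psmb3, of the same kind, was past it in 5 classes.

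Psmb5 and Psmb6 were each past 1.5-fold lower in 4 classes and lower in all 8. Psmb5, the chymotrypsin-like subunit and the main target of proteasome inhibitor drugs, stood at 124 CPM in WT and 62.5 CPM in KO in T-like cells and at 60.9 and 27.6 CPM in neutrophil-like cells. Psmb6 was lowest, relative to WT, in neutrophil-like cells, at 45.1 and 13.8 CPM (log2 −1.64). Psmb7 was past the fold in 3 classes and differed little in B-like (51.8 and 52.4 CPM) and pDC-like cells (50.2 and 54.4 CPM).

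Psmb4 was the core subunit that differed least. Its levels were 187 and 156 CPM in T-like cells, 161 and 133 CPM in NK-ILC1-like cells and 91.8 and 98.8 CPM in B-like cells, it was within 1.5-fold in 8 of 8 classes, and its median log2 ratio over classes was −0.24. Psmb11, which is known from thymic epithelium, had 0 UMIs in either library, which allows up to 3 UMIs.

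The promoters of Psma4, Psma2 and Psmb5, core members that were lower in all 8 classes, are shown beside that of Psmd13, which was not, so that their motifs can be compared. Each is the 250 bases before the start of the gene on its own strand, from RefSeq on GRCm38.p6, a build other than the mm39 that the submitters' processing notes name. The windows are Psma4 at chr9:54950609-54950858 (plus strand), Psma2 at chr13:14612992-14613241 (plus strand), Psmb5 at chr14:54617996-54618245 (minus strand) and Psmd13 at chr7:140882144-140882393 (plus strand). Capitals mark the core of the antioxidant response element (TGACNNNGC or TGAGNNNGC), which factors of the Nfe2l family bind, and the CCAAT box, on either strand.
Psma4: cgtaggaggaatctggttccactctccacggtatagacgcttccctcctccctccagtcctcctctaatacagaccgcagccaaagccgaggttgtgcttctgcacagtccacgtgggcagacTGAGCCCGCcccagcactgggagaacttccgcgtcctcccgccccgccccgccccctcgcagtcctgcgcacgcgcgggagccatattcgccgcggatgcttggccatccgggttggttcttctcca
Psma2: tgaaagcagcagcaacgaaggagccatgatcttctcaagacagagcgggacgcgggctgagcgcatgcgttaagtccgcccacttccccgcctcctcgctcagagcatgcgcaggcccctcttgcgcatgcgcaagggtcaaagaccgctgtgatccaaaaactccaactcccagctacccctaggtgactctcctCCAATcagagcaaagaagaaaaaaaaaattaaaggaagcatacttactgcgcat
Psmb5: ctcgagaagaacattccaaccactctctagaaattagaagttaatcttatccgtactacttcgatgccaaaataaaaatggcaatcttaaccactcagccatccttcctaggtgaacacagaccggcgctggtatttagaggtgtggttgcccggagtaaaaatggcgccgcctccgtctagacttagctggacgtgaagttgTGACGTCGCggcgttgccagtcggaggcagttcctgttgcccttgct
Psmd13: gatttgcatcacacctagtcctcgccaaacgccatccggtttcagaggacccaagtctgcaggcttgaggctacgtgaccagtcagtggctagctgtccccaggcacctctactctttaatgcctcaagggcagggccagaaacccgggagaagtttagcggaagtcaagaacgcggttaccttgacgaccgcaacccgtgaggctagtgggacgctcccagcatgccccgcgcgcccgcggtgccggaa

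The element core lies 127 bases before the start in Psma4 and 47 in Psmb5, the CCAAT box lies 54 bases before it in Psma2, and the Psmd13 window holds neither. Promoters were found for 29 of the 36 members in a table of 27025 genes. The element core was in 5 of 12 core members and 4 of 14 19S members, and in 25.7% of all genes in the table. CCAAT was in 7 of 12 core members and 4 of 14 19S members, and in 37.5% of all genes. Interferon motifs were searched in the same windows: the core of the interferon-stimulated response element, GAAA repeated after any 2 bases, was in 1 core and 1 19S member and in 3.46% of all genes, and TTCNNNGAA was in 0 members of either and in 8.13% of all genes. Of the 3 inducible subunits Psmb8, Psmb9 and Psmb10, 0 held the former and 1 the latter. The search can thus miss interferon-responsive genes, and few matches do not show that the members lack such elements. Psma4 and Psma2 thus shared neither of the marked motifs although their levels differed alike, and a match is a description of letters in the window, not a site. The contrast with Psmd13 did not hold over the list. Psmc6, Psmd1 and Psmd5 held the element core and were lower past 1.5-fold in 0 classes. Psma5, lower past it in 6 classes, and Psmd6, in 4, held neither motif.

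In the ATPase ring, which unfolds substrates, Psmc3 differed little in either direction, at 92.4 CPM in WT and 77.6 CPM in KO in T-like cells and 78.9 and 90.9 CPM in NK-ILC1-like cells. Psmc1 was 69.8 and 58.8 CPM in T-like cells and 26.1 and 38.1 CPM in pDC-like cells. Psmc4 was the ATPase lowest in KO relative to WT, past 1.5-fold in 3 classes, although its lowest ratio, in erythroid-like cells, rested on 35 WT and 4 KO UMIs. Psmc2 was past the fold in 2 of the 7 classes where it was measured, Psmc5 in 1 (neutrophil-like cells, 20.2 and 8.50 CPM) and Psmc6 in none.

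Among the other 19S subunits, Psmd4, Psmd14, Psmd11, Psmd1 and Psmd2 were in no class lower past 1.5-fold, apart from Psmd14 in 1 class with haemoglobin left out of the total. Psmd4, a ubiquitin receptor, stood at 105 and 91.7 CPM in T-like cells and 93.3 and 92.4 CPM in monocyte-macrophage-like cells. Psmd14, the deubiquitinase of the lid, stood at 146 and 122 CPM in T-like cells and 97.1 and 72.9 CPM in monocyte-macrophage-like cells. Psmd11 was 113 and 106 CPM in T-like cells and 35.1 CPM in both libraries in neutrophil-like cells. Psmd1 and Psmd2 are the large scaffold subunits of the base.

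Psmd13, a lid subunit, did not follow the others. In neutrophil-like cells it stood at 43.8 CPM in WT and 69.1 CPM in KO, a ratio of 1.58 (interval 1.29 to 1.91), and in monocyte-macrophage-like cells at 65.8 and 75.3 CPM, a ratio of 1.14 (1.01 to 1.29). In T-like cells it was 70.8 and 62.8 CPM, a ratio of 0.887 (0.805 to 0.977). Over the 14 points of 7 leukocyte classes and 2 libraries, its level had Pearson r = 0.37 with the summed level of the rest of the members. Both were taken as log2 of CPM plus 1, and this r was the lowest of all members apart from those at 0. The median r was 0.91, with Psmb1 and Psma4 at 0.98. The points share library, depth and haemoglobin share, so these are descriptions.

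Not every 19S subunit stayed close to WT. Psmd6, a lid subunit, was past 1.5-fold lower in 4 classes, among them T-like cells at 53.8 and 34.7 CPM and neutrophil-like cells at 23.8 and 12.8 CPM. Psmd12 was past it in 3 of 7 classes, with 23.4 and 10.6 CPM in neutrophil-like cells, and Psmd8 in 3 of 8, with 152 and 96.2 CPM in monocyte-macrophage-like cells. The base chaperones differed from each other: Psmd10 was past it in 4 of 7 classes (31.6 and 15.3 CPM in monocyte-macrophage-like cells), Psmd9 in 2 of 7, and Psmd5 in none, with 28.0 and 28.1 CPM in T-like cells and 29.2 and 34.9 CPM in NK-ILC1-like cells.

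The extremes differed by class. The highest log2 ratios were those of Psmd5 in T-like (0.01), NK-ILC1-like (0.25) and B-like cells (0.56), Psmd13 in neutrophil-like (0.64) and monocyte-macrophage-like cells (0.19), Psma8 in DC-like cells (0.54), Psmc1 in pDC-like cells (0.53) and Psmd4 in erythroid-like cells (0.60). The 3 lowest in each class were Psma4, Psma5 and Psmb2 in T-like and pDC-like cells, Psmb2, Psma2 and Psma5 in NK-ILC1-like cells, Psma4, Psmd10 and Psmb2 in B-like cells, Psma5, Psmb6 and Psma2 in neutrophil-like cells, Psma5, Psmd10 and Psma4 in monocyte-macrophage-like cells, Psma5, Psmd9 and Psma4 in DC-like cells, and Psmc4, Psmb1 and either of Psma4 and Psmc1 in erythroid-like cells. Psma4 or Psma5 was thus among the 3 lowest in each of the 7 leukocyte classes.

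Member by member within clusters, the order was alike. The medians over clusters were lowest for Psma5 (−0.93), Psmb2 (−0.83), Psma2 (−0.78) and Psma4 (−0.78), and highest for Psmd13 (0.10), Psmc3 (0.08) and Psmd5 (0.01). All core members except Psmb4 and Psmb7, whose medians were −0.08 and −0.31, had a median of −0.42 or lower among the members measured in more than 1 cluster.

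**Figure D4:**
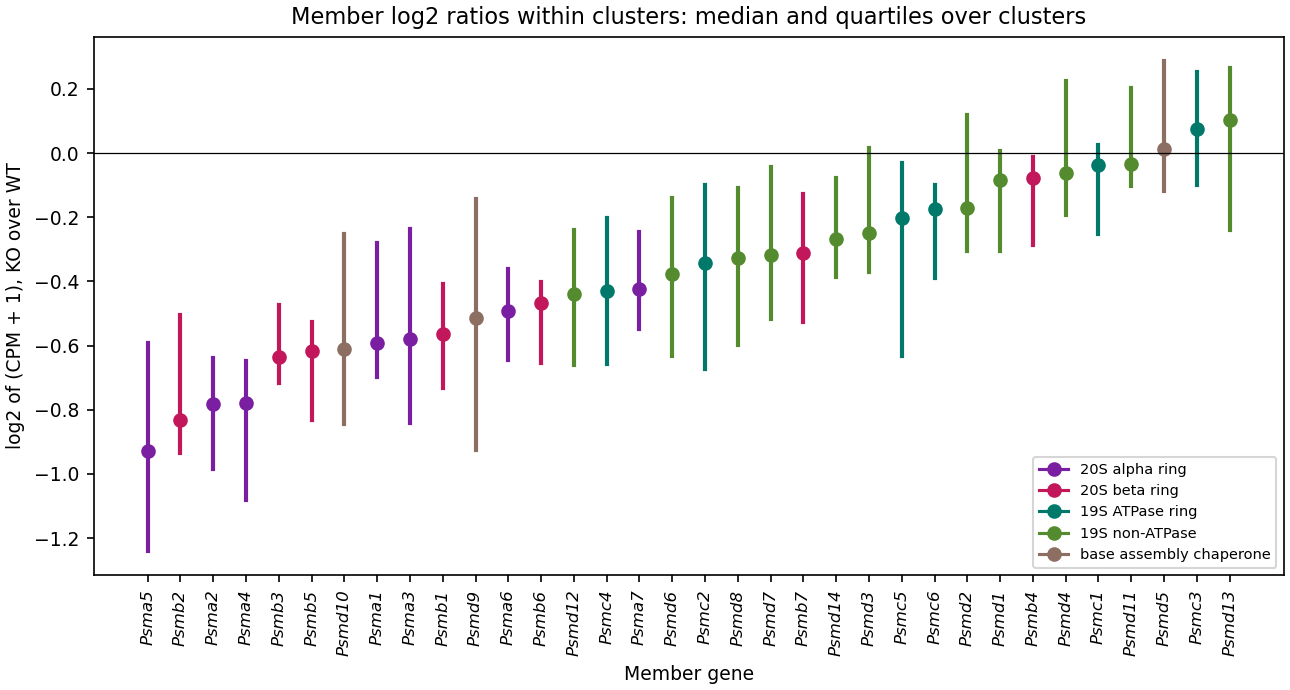
Median log2 ratio of CPM plus 1, KO over WT, over the clusters with at least 50 cells in each library (vertical axis) for each member measured in several clusters (horizontal axis, sorted), with bars from the first to the third quartile over clusters. Colours give the role, and core subunits fill most of the left side and 19S subunits most of the right.

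The 3 catalytic subunits were then set against their inducible counterparts as a share of the UMIs of each pair, which needs no scaling. In monocyte-macrophage-like cells Psmb5 made up 22.5% of Psmb5 plus Psmb8 in WT (interval 21.4 to 23.6%) and 39.1% in KO (37.1 to 41.1%). Psmb6 made up 24.5% of Psmb6 plus Psmb9 in WT and 42.3% in KO, and Psmb7 made up 20.7% of Psmb7 plus Psmb10 in WT and 33.2% in KO. The inducible subunits were thus the larger part of each pair in both libraries and a smaller part in KO. The constitutive subunits themselves were lower in KO in these cells, and Psmb8 (570 CPM in WT and 181 CPM in KO), Psmb9 (414 and 127 CPM) and Psmb10 (280 and 115 CPM) were lower by more.

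T-like cells showed little of this, with 22.4% in WT and 22.6% in KO for Psmb5, 22.2% and 25.7% for Psmb6, and 33.8% and 33.7% for Psmb7. Only the Psmb6 intervals did not overlap. In B-like cells the shares were 22.9% and 28.5% for Psmb5, 15.7% and 28.1% for Psmb6, and 35.5% and 48.8% for Psmb7, the last 2 with intervals apart. DC-like cells had 18.2% and 24.6%, 13.9% and 17.3%, and 38.1% and 47.2%, all with intervals apart. Over 8 classes and 3 pairs the constitutive share was higher in KO in 22 of 24, with intervals apart in 10. In no pair were the intervals apart in the other direction. Inside clusters it was higher in KO in 64 of 72, with intervals apart in 18.

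**Figure D5:**
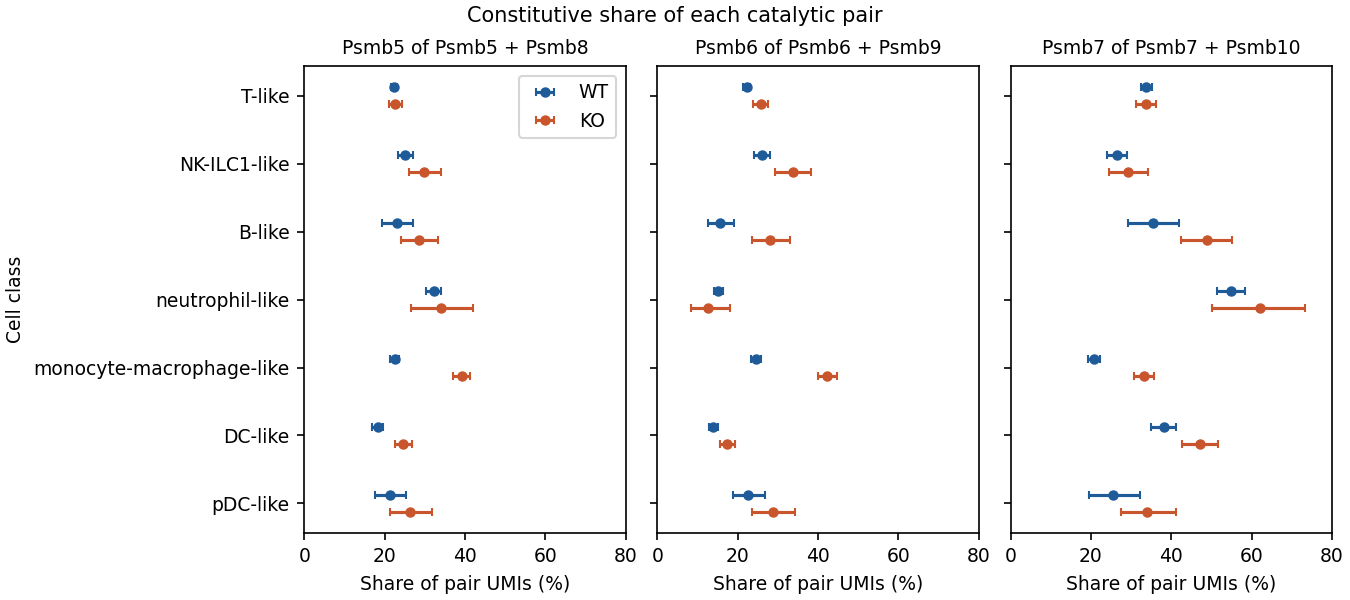
Share of the constitutive subunit in each catalytic pair (% of the UMIs of the pair, horizontal axis) in 7 leukocyte classes (vertical axis), WT and KO, with exact Clopper-Pearson intervals. Erythroid-like cells, with few UMIs, are not drawn, and KO lies to the right of WT by the most in monocyte-macrophage-like cells for the Psmb5 and Psmb6 pairs and in B-like cells for the Psmb7 pair (35.5% and 48.8%).

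Other genes of the pathway were read in fixed lists. Of the 5 assembly chaperones of the core, Psmg1 to Psmg4 and Pomp, 1 was lower past 1.5-fold in T-like cells (17% of all genes), 3 in NK-ILC1-like (20.1%), 4 in neutrophil-like (24.3%) and 2 in pDC-like cells (17.8%). It was 1 each in B-like (9.36%), monocyte-macrophage-like (12.3%) and DC-like cells (9.77%), and 0 of the 1 measured in erythroid-like cells (18.9%). Pomp, which helps the beta ring to mature, was lower in each class, with 207 CPM in WT and 120 CPM in KO in T-like cells, 216 and 106 CPM in NK-ILC1-like cells and 434 and 260 CPM in monocyte-macrophage-like cells. The activators differed in direction. Psme1 and Psme2, the interferon-inducible cap of the core, were lower in all 8 classes (Psme2 617 and 211 CPM in monocyte-macrophage-like cells). Psme3, the nuclear activator, was higher in all 8 (40.0 and 74.4 CPM in the same cells). The interval of its ratio included equality in T-like cells (1.10, 0.993 to 1.22) and in B-like cells (1.22, 0.879 to 1.72). Of the 15 bound factors and receptors, 1 was lower past 1.5-fold in T-like cells, Txnl1 (69.2 and 39.4 CPM). The count was 3 of 15 in neutrophil-like, 4 of 14 in pDC-like, 2 of 9 in erythroid-like and 1 of 15 in monocyte-macrophage-like cells, and 0 in NK-ILC1-like, B-like and DC-like cells, against the same percentages of all genes.

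The list of 5 regulators of proteasome expression had 1 member lower past 1.5-fold in monocyte-macrophage-like cells, Nfe2l2 (12.3% of all genes). It had 1 in erythroid-like cells, also Nfe2l2 (18.9%), and none in the other classes (9.36% to 24.3%). Below a ratio of 1 were 4 of the 5 in B-like, 3 in DC-like, 1 each in T-like and neutrophil-like and 2 in each of the other 4 classes. The median log2 ratio of all genes tested lay between −0.17 and 0.02 in these classes. Nfe2l1, the transcription factor that induces proteasome genes when proteolysis is short, stood at 39.4 CPM in WT and 50.1 CPM in KO in T-like cells and at 41.9 and 44.9 CPM in monocyte-macrophage-like cells. Nfe2l2, its stress-responsive relative, stood at 201 and 408 CPM in neutrophil-like cells and 370 and 230 CPM in monocyte-macrophage-like cells. Higher past 1.5-fold was 1 of the 5 in T-like cells, Nfe2l2, where 10.8% of all genes were. It was 3 of the 5 in neutrophil-like cells, Nfe2l2, Ddi2 and Ngly1, where 19.9% of all genes were. Such counts of 5 genes are too small to set apart from the background.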

How the data were processed

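Droplet-based 3′ single-cell RNA was measured in 2 libraries, 1 per genotype. The authors deposited raw UMI counts per gene and barcode, with no normalization. Cell Ranger 8.0.1 made them per the file headers. The submitters' processing notes give a different version, Cell Ranger 6.0.1, besides Seurat 4.3.0 and the build mm39. A 3′ library counts 1 tag per transcript, so levels were not divided by length. The reads of members with near-identical copies cannot be told apart from them where the counting split or dropped shared reads.

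Barcodes under 200 genes (1919 WT and 9283 KO) or over 20% mitochondrial UMIs (111 and 75) were left out, as were doublets marked by Scrublet in scanpy 1.11.5 (3087 WT, 15.3%, and 2056 KO, 11.6%). All 22197 WT and 27033 KO barcodes held at least 500 UMIs. Both libraries were clustered together (2000 variable genes, 30 principal components, 15 neighbours, Leiden at resolution 1 with leidenalg 0.10.2), which gave 27 clusters. A cluster was named X-like when at least 3 markers stood 2-fold above the rest and were present in 10% or more of its cells. UMIs were summed per library and class and scaled to CPM, and log2 ratios are of CPM plus 1. Sums carry exact Poisson, ratios exact conditional binomial and shares exact Clopper-Pearson intervals. The interval procedure was tested on simulated data.

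The members and all lists were chosen with earlier results of these data known. Members could all be named, as could the 3 lowest and 3 highest per class, those past 1.5-fold in at least 4 classes, those higher past 1.5-fold in any class, and genes of the pathway lists. The core share, TMM counts by particle and counts across classes were added after seeing the data. Scaling by TMM (edgeR 4.0.16) and by size factors (DESeq2 1.42.0) was tried, as were thinning cells to 1000 UMIs, doublets kept, stricter cell filters, dividing clusters or haemoglobin left out, pseudocounts of 0.1 and 10, and minimum counts of 1 and 100. Some genes of the pathway lists are not reported here.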

Additional observations from a re-analysis of the deposited data

Results flagged for a closer look

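Psmd13 was higher in KO in neutrophil-like cells, with a ratio of 1.58 (43.8 CPM in WT and 69.1 CPM in KO, interval 1.29 to 1.91), and in monocyte-macrophage-like cells, with a ratio of 1.14 (65.8 and 75.3 CPM, interval 1.01 to 1.29), while its interval lay below equality in T-like cells. Psmd4 was higher in KO in erythroid-like cells, with a ratio of 1.53 (46.0 and 70.2 CPM, interval 1.27 to 1.84), while its interval lay below equality in T-like cells. Its log2 ratio was within 1.5-fold in each class with TMM scaling, at most 0.58, and with haemoglobin left out of the total, at most 0.35. The summed member level was higher in KO in the unnamed cluster 24, led by Jchain, Igha and Mzb1, genes of antibody-secreting cells, with a ratio of 1.14 (2133 and 2425 CPM, interval 1.06 to 1.22), while 21 other clusters had an interval below equality. The difference between classes or clusters was not tested in any of these, since each genotype had 1 library.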

How the results depend on the processing

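No paired analysis was possible because each genotype had 1 library and the labels give no replicate numbers. The median over classes of the KO over WT ratio of the summed level was 0.727. It was 0.784 with TMM and with DESeq2 scaling and 0.794 with haemoglobin genes left out of the total. It was 0.825 with cells over 10% haemoglobin left out and 0.759 with clusters weighted equally, both added after seeing the data. The direction was lower in KO in each class that could be compared under these settings. The summed level of erythroid-like cells reversed with thinning, to a ratio of 1.00.

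The median over classes of the list median was −0.45. It was −0.34 with TMM, −0.33 with DESeq2 scaling, −0.36 with thinning, −0.39 with at least 500 genes and at most 10% mitochondrial UMIs, −0.39 with dividing clusters left out and −0.26 with haemoglobin genes left out. It was −0.33 with a pseudocount of 10, −0.39 with a minimum count of 1, −0.37 with a minimum of 100 and −0.21 with cells over 10% haemoglobin left out. The 87 pairs of a member and a class lower past 1.5-fold became 57 with a pseudocount of 10 and 55 with cells over 10% haemoglobin left out, which covers the 7 classes other than erythroid-like cells that held 75 of the 87. TMM moved the median of all genes from −0.16 to −0.01 in NK-ILC1-like cells and from −0.17 to −5.86e-05 in pDC-like cells, and by less elsewhere.

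The core share stayed lower in KO in each class under each setting tried, by 2.83 to 17.0 percentage points. Of the values for single classes under each alternative, 198 stayed within a set limit, 97 moved further and 1 reversed. The limit was the counting interval for summed levels and 1.5 times for counts. For list medians it was a margin set by the width of the summed level's interval. For core share differences it was a fixed margin in percentage points. Erythroid-like cells could not be compared with at least 500 genes (7 WT and 3 KO cells) or with cells over 10% haemoglobin left out (0 in each). Depth limits single members: in KO 3 UMIs correspond to 2.43 CPM in pDC-like, 1.59 CPM in neutrophil-like and 0.941 CPM in erythroid-like cells.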

Other observations

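Progenitor-like cells (497 in WT and 52 in KO) were led by the granule genes Mpo, Elane and Prtn3. Among their leading genes were also Mcpt8, Cpa3, Gata2 and Ms4a2, which are 4 markers of mast cells or basophils, so the name is not clear-cut. This cluster also met 10 markers of dividing cells, a state with higher member levels in T-like and neutrophil-like cells. It held the highest summed member level of any named cluster in WT, 5889 CPM, and 3708 CPM in KO. Psma4 stood at 266 CPM in WT and 112 CPM in KO in these cells and Psmb2 at 322 and 136 CPM. The number of KO cells was too small for the comparison made in the other classes.

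Per cell, after thinning each cell to 1000 UMIs, T-like cells held a mean of 3.34 member UMIs in WT and 2.40 in KO, monocyte-macrophage-like cells 3.91 and 2.92, and neutrophil-like cells 1.37 and 0.956. This left out 675 WT and 748 KO T-like cells that were shallower. A member UMI was seen in 94.5% of the thinned WT T-like cells and 89.0% of the KO ones. Before thinning their median depth was 2799 and 1864 UMIs.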
